A study of Mus musculus with 8 samples.

Results

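CTCF and cohesin genes are the set described here, 10 mouse genes whose products form and position chromatin loops: Ctcf, Smc1a, Smc3, Rad21, Nipbl, Stag1, Stag2, Wapl, Pds5a and Pds5b. They were chosen by name, and their N6-methyladenosine (m6A) peaks were those that shared at least 1 exonic base, on the same strand, with the gene. Of 18895 peaks in the list of DMSO-treated cells 47 lay over these genes, and of 13001 peaks in the list of Dox-treated cells 35 did. Each of the 10 genes carried a peak in the DMSO list, where 27.5% of 22028 protein-coding genes did. Of the 10 genes, 8 carried a peak in the Dox list (Stag1 and Stag2 did not), against 22.1% of protein-coding genes. The members are long genes, and among the 8882 protein-coding genes with at least the 4232 nt of exons of the shortest member, Rad21, the shares were 40.6% and 32.4%. These shares include genes whatever their expression in the cells. No comparison was made with genes of like expression, so the part of expression in these differences was not tested.

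The peaks came from MeRIP-seq, in which fragmented poly(A) RNA is pulled down with an antibody to m6A (IP) and sequenced beside unselected RNA (input). The cells were E14, a line of mouse embryonic stem cells (ESCs), carrying a doxycycline (Dox)-inducible Dux transgene and a tdTomato reporter driven by the Mervl promoter. All groups shared both transgenes and received either DMSO, the solvent, or Dox for 24 h, and the labels gave 8 libraries in 4 groups of 2, an IP and an input group for each treatment. Dux is a transcription factor of the 2-cell embryo, and its induction moves part of an ESC culture to a 2-cell-like (2C-like) state, so that the comparison asks which transcripts bear m6A before and during that shift. Whether the cells were sorted before RNA extraction is not given in the sources used here. The data used here are 1 peak list per treatment, which holds no value per replicate and no read count, so that no test between treatments was made from them and the depth behind each peak is unknown. The libraries themselves were not analysed here. Peaks of the 8 ESC marker genes checked were present in both lists. Of 7 markers of 2C-like cells, 2 had a DMSO peak and 7 had one under Dox, while 0 of 5 fibroblast and 0 of 4 primitive endoderm markers had one in either list.

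Cohesin is a ring made of the paired coiled-coil ATPases SMC1A and SMC3, closed by RAD21 and bound by a STAG subunit. NIPBL loads the ring onto DNA and drives the extrusion of loops, WAPL with PDS5A or PDS5B releases it, and CTCF bound to DNA halts it at loop anchors. In mRNA, m6A is written at an adenosine in the consensus DRACH (D is any base but C, R a purine, H any base but G), of which GGAC is the best known form. It is known to be dense in long internal exons and around stop codons.

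The sequences below show where such a motif lay in the peaks that the comparison turns on. Each is the transcript strand of GRCm38 (mm10) from 5′ to 3′, in T for U, with 25 bases centred on the candidate adenosine and the motif that holds it in capitals. The first lines are GGAC sites in the peaks nearest to the stop codons, where 5 members had a peak in at least 1 list.
Ctcf, chr8:105681600-105681624, + strand: tcagcatgatGGACcggtgatgctg
Ctcf, chr8:105681633-105681657, + strand: ctcggcaccaGGACtattgggctgt
Rad21, chr15:51964065-51964089, − strand: tgcaacccctGGACcacggttccat
Nipbl, chr15:8291224-8291248, − strand: gccaaggatgGGACttccagctaat
Pds5a, chr5:65615440-65615464, − strand: accccggagaGGACgtcgccccaaa
Pds5b, chr5:150807947-150807971, + strand: gccaaagcgtGGACagttggacttc
The next lines belong to the STAG genes, whose peaks had no counterpart in the Dox list. They give the pair of GGAC sites in the Stag1 peak, and the whole Stag2 peak of 25 nt, which holds no GGAC and is therefore in lower case throughout.
Stag1, chr9:100951627-100951651, + strand: tggctaaataGGACtgacacgatga
Stag1, chr9:100951653-100951677, + strand: tcagactcctGGACccttgccaacc
Stag2, chrX:42266167-42266191, + strand: agctcacctccactattatgagaga
The last lines come from the best-scoring peak of the whole set, in Ctcf, which held 0 GGAC and 5 DRACH sites. The capitals mark 2 of the DRACH sites.
Ctcf, chr8:105680086-105680110, + strand: cggatctcgaTGACAatgaggagga
Ctcf, chr8:105680123-105680147, + strand: tgtagaaattGAACCtgagccagag

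Ctcf (ENSMUSG00000005698.15, chr8:105636568-105682922, + strand) encodes the zinc-finger protein that halts cohesin. Among the members with peaks in both lists it had the lowest ratio of DMSO to Dox covered bases, though not the most similar scores. It carried 6 DMSO and 7 Dox peaks, which covered 1700 and 1550 exonic bases, or 35.0% and 31.9% of its exons. Each of the 6 DMSO peaks shared bases with a Dox peak. They lay in the 5′UTR, in exon 3 and on into exon 4, in exon 9, in exon 10, in exon 11 and across the stop codon in exon 12. Exon 3, the longest internal exon with 790 nt, was covered almost throughout, over 779 nt by DMSO and 754 nt by Dox peaks.

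The highest scores of the set were those of Ctcf peaks. The score is the −log10 p-value that the authors gave each peak for enrichment of IP over input, and a percentile below is the place of the score among all peaks of its own list. The exon 11 peak (chr8:105680071-105680270, 200 nt) scored 45.6 in the DMSO list, at percentile 99.5, and 20.5 in the Dox list, at percentile 97.5, with the same borders in both. The best Dox peak of Ctcf, with a score of 20.6, was the one over the stop codon, whose DMSO counterpart scored 18.1. It holds the GGAC 5 nt before the stop codon and the one 28 nt after it that are printed above. The seventh Dox peak, at chr8:105637558-105643518, was the 1 Ctcf peak without a DMSO counterpart. It was 25 nt long in 2 blocks, had a score of 11.1, at percentile 34.5, and lay 3 nt in exon 2 of the coding transcript with the rest in a processed transcript of the gene.

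**Figure D1:**
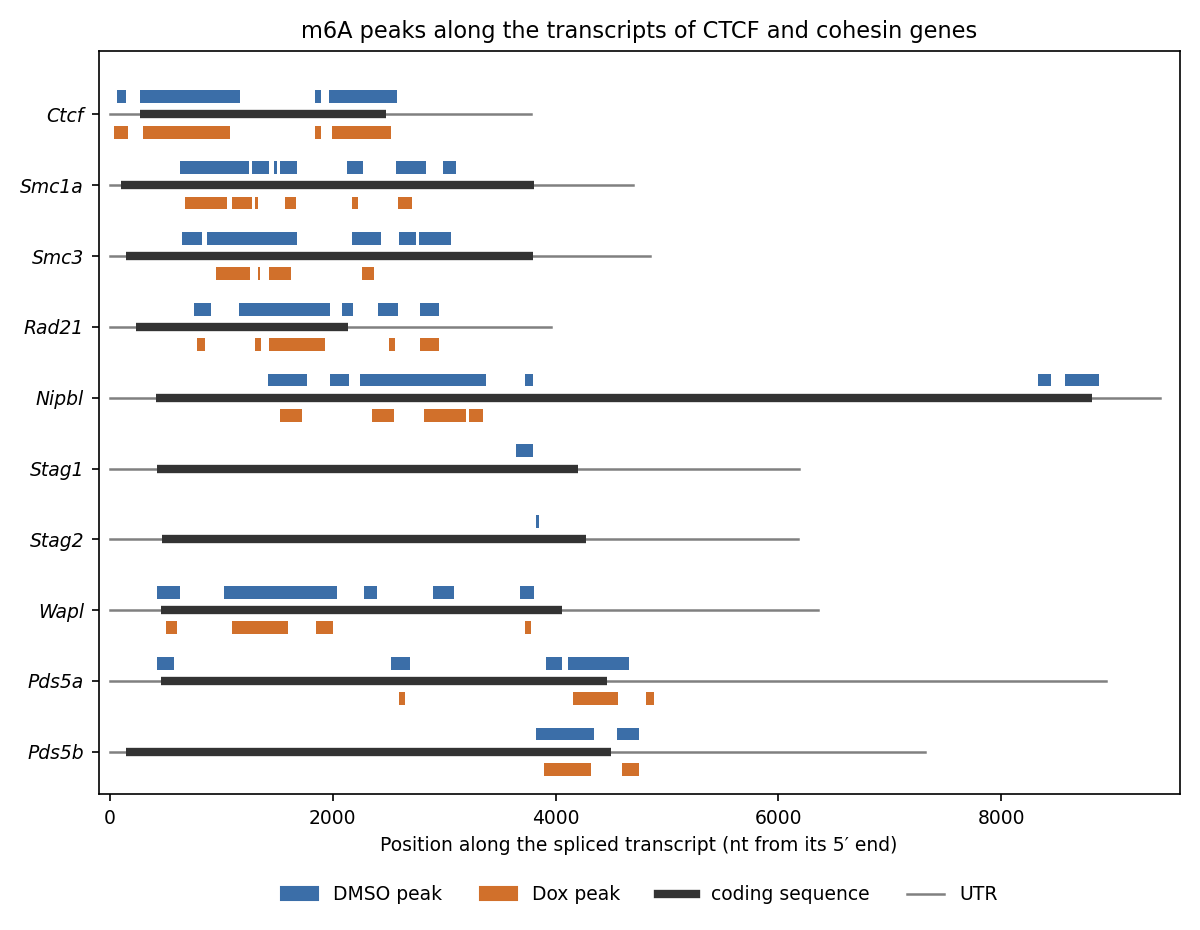
Peaks of the DMSO list (blue, above) and the Dox list (orange, below) along the spliced transcript of each gene that has the longest coding sequence; the x axis is the position in nt from the 5′ end, thick grey the coding sequence and thin grey the UTRs. The parts of a peak that lie in this transcript are drawn. Peaks of both lists sit at like places in 8 genes, DMSO blocks are mostly wider, and the 3′ end of Nipbl and both STAG genes hold DMSO peaks alone.

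Among the ring subunits the DMSO list covered more of each transcript than the Dox list. Smc1a (chrX:152016428-152062694, + strand), an ATPase arm of the ring, carried 9 DMSO and 6 Dox peaks over 1575 and 850 exonic bases. Smc3 (chr19:53600398-53645833, + strand), its partner arm, carried 6 and 4 peaks over 1675 and 650 bases, a ratio of 2.58 that was the highest of the 8 members with both. Rad21 (chr15:51962240-51991747, − strand), the kleisin that closes the ring, carried 5 peaks in each list, over 1400 and 850 bases. Most of their peaks lay in the coding sequence well before the stop codon, and every Dox peak of these 3 genes overlapped a DMSO peak.

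In each ring subunit the longest DMSO peak was met by several shorter Dox peaks. The Smc1a DMSO peak of 625 nt over exons 4 to 7 (chrX:152026348-152028073, score 14.5) was met by 2 Dox peaks. The Smc3 DMSO peak of 800 nt, spliced over exons 10 to 16 (chr19:53622614-53628690, score 12.8), was met by 3, of which the longest had 300 nt. The Rad21 DMSO peak of 800 nt over exons 8 to 14 (chr15:51964240-51971758, score 14.4) was met by 2, of 50 and 500 nt. The same count of Rad21 peaks in the lists thus went with different extents, since the Dox list split this peak and lacked the DMSO peak at the stop codon.

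In each ring subunit the best score was that of a DMSO peak. In Smc1a the long DMSO peak scored highest, at percentile 87.4, while the best Dox peak (75 nt, chrX:152029325-152033699) scored 13.1, at percentile 80.8. In Smc3 the best DMSO peak had no Dox counterpart. It was 100 nt long, at chr19:53634029-53635483, with a score of 16.4 and percentile 92.9, and the best Dox peak of the gene scored 12.5. In Rad21 the best DMSO peak lay in the 3′UTR at chr15:51963240-51963414 with a score of 17.4, and the Dox list had the same 175 nt with a score of 14.0. The best Rad21 peak of the Dox list, with 75 nt in exon 6, scored 14.6.

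The ring subunits held 4 Smc1a, 4 Smc3 and 1 Rad21 peak that the Dox list did not overlap. In Smc1a they were 25, 25, 100 and 50 nt long, with scores of 10.5 to 12.7. Of the second 25 nt peak (chrX:152046876-152046900) 6 nt lay in the coding transcript, and of the 50 nt peak 29 nt did. A transcript that retains an intron held each of these peaks whole. In Smc3 they were 175, 100, 150 and 275 nt long and included a pair of spliced peaks over exons 22 to 25. The Rad21 peak (chr15:51964015-51964114, 100 nt, score 11.2, percentile 34.4) was centred 6 nt before the stop codon and held the GGAC site printed above.

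The STAG subunits, which bind RAD21 and take part in holding the ring at CTCF sites, carried the fewest peaks of the set. Stag1 (chr9:100597798-100959375, + strand) had 1 DMSO peak of 150 nt across exons 29 and 30 (chr9:100947240-100951708), with a score of 12.7 and percentile 71.9. Stag2 (chrX:42149317-42277185, + strand) had 1 DMSO peak of 25 nt in exon 30, with a score of 10.5 and percentile 10.1. They lay at like places, centred 476 and 434 nt before the stop codon of their transcripts. The Dox list had no peak over either gene. Among all 6064 protein-coding genes with a DMSO peak, 1334 (22.0%) had no Dox peak, so that 2 of 10 members is near the share of all genes. Their exons were long, with 11781 and 8273 nt, of which the peaks covered 1.27% and 0.302%.

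Nipbl (chr15:8290617-8444463, − strand), which loads cohesin, had the most covered bases of the set in the DMSO list. Its 6 DMSO peaks covered 2150 exonic bases and its 4 Dox peaks 900. Exon 10, with 1608 nt the longest internal exon of the members, held 1300 bases of DMSO and 700 bases of Dox peaks. The best DMSO peak of the gene, 1125 nt at chr15:8350352-8351476 with a score of 14.2, lay in it and was met by 3 Dox peaks of 125 to 375 nt. The best Dox peak (200 nt, chr15:8351177-8351376) scored 11.6, at percentile 53.5, the highest of the gene's 4 Dox peaks.

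The Dox list had no Nipbl peak beyond exon 10. The DMSO list had 3 there, of 75 nt in exon 12, 125 nt in exon 46 and 300 nt in exon 47, with scores between 10.7 and 12.7. One more DMSO peak without a counterpart, of 175 nt, lay in exon 10 itself, at score percentile 27.3. The peak in the last exon (chr15:8291167-8291466) covered the stop codon and held 2 GGAC sites, the nearer of them 9 nt before the stop.

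The release factors showed the same order. Wapl (chr14:34673928-34747983, + strand), which opens the ring, had 6 DMSO and 4 Dox peaks over 1650 and 800 exonic bases. Its exon 3, of 1053 nt, held 982 bases of DMSO and 650 bases of Dox peaks, and the DMSO peak of 1000 nt there was met by Dox peaks of 500 and 150 nt. Of the members with peaks in both lists Wapl was one of 2 with a best score higher in the Dox list by percentile, the other being Pds5a. Its best Dox peak, 50 nt in exon 16, scored 14.3 at percentile 88.8, and the best DMSO peak, 200 nt across exons 1 and 2, scored 13.7 at percentile 82.6. The 3 Wapl peaks of the DMSO list alone were 50, 100 and 175 nt long, at score percentiles of 75.3, 62.6 and 28.4.

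Pds5a and Pds5b, a pair of paralogs that bind the ring and work with WAPL, were covered mainly in the last coding exons. Pds5a (chr5:65605721-65698273, − strand) had 4 DMSO and 3 Dox peaks over 1025 and 525 bases, with best scores of 12.5 and 12.3. Pds5b (chr5:150673739-150810690, + strand) had 3 and 2 peaks over 750 and 575 bases, with best scores of 14.7 and 13.6. Both genes had a peak near the stop codon in both lists, centred 71 and 96 nt before it in Pds5a and 156 and 181 nt after it in Pds5b, for DMSO and Dox in turn. In Pds5b the best peak of each list was this one, at chr5:150807902-150808101 in the DMSO list, and it held 2 GGAC sites. The line printed above shows the first in capitals and the second in lower case.

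A few peaks of these paralogs occurred in 1 list. For Pds5a these were DMSO peaks of 150 nt at the start codon (score 12.1, with 3 GGAC sites) and of 150 nt over exons 30 and 31 (score 12.1), and a Dox peak of 75 nt in the 3′UTR (chr5:65609771-65609845). The Dox peak had a score of 10.2, at percentile 3.93, and its sequence has an identical copy at chr17:34538236-34538310, so that its reads could come from either place. For Pds5b it was a DMSO peak of 25 nt, 3 nt of which lay in exon 34 and the rest in a transcript that retains the intron, with a score of 12.1.

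Summed over the set, 12100 exonic bases lay in DMSO peaks and 6700 in Dox peaks, a ratio of 1.81. Over all protein-coding genes the totals were 3627993 and 2465749, a ratio of 1.47. Each of the 10 members had more covered bases in the DMSO list, where 86.7% of the 6213 protein-coding genes with a peak in either list did and 8.55% had more in the Dox list. Among genes with peaks in both lists, 85.7% had more in the DMSO list, as did each of the 8 such members. For the 8 members with peaks in both lists the ratio of DMSO to Dox bases ranged from 1.10 in Ctcf to 2.58 in Smc3 with a median of 1.90. The median over the 4730 protein-coding genes with peaks in both lists was 1.42, with quartiles of 1.14 and 2.00. The members' median thus lay inside the middle range of all genes, and the direction was that of most genes.

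**Figure D2:**
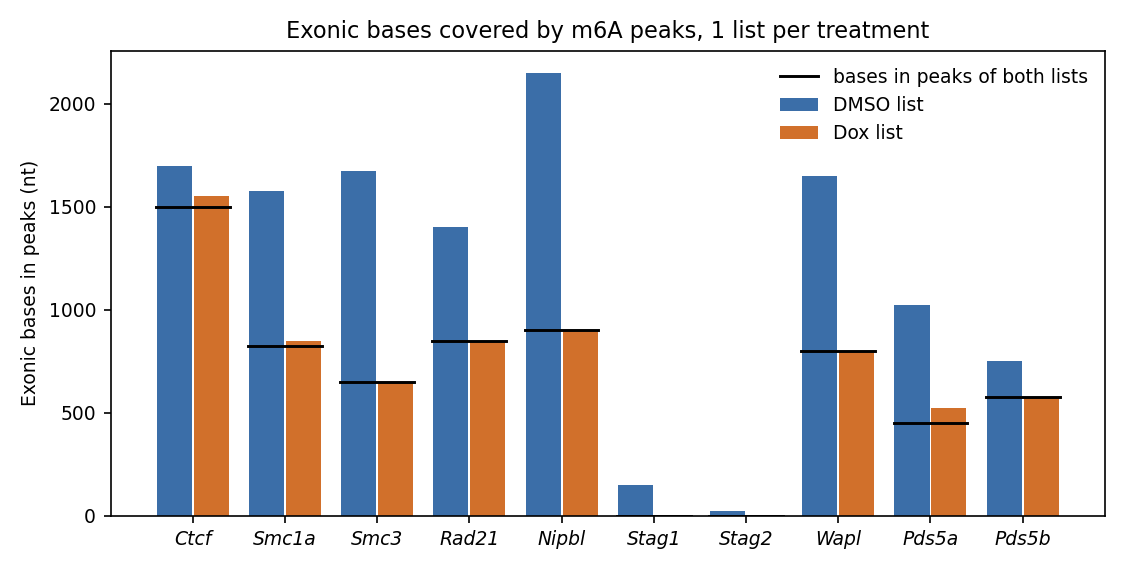
Exonic bases of each gene inside peaks (y axis, nt) for the DMSO list (blue bars) and the Dox list (orange bars); black lines give the bases inside peaks of both, and there are no error bars because each treatment has 1 list. The DMSO bar is the higher in all 10 genes, with the lowest ratio in Ctcf (1700 against 1550) among genes with both bars, and Stag1 and Stag2 have no Dox bar.

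The bases of the Dox peaks were nearly all bases of DMSO peaks. Of the Dox bases 6550, or 97.8%, also lay in DMSO peaks, and these made up 54.1% of the DMSO bases. By number, 33 of 35 Dox peaks overlapped a DMSO peak (94.3%, Wilson 95% interval 81.4 to 98.4) and 26 of 47 DMSO peaks a Dox peak (55.3%, 41.2 to 68.6). Over all peaks 92.7% of the Dox list and 10761 of the 18895 DMSO peaks were overlapped, shares inside these intervals, which cover counting error alone. The overlap of the members was thus like that of the lists as a whole. Of the 21 DMSO peaks without a counterpart, 10 scored below the median of their list, and their lengths ran from 25 to 300 nt with a median of 100, against a median of 200 for the 26 overlapped peaks.

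**Figure D3:**
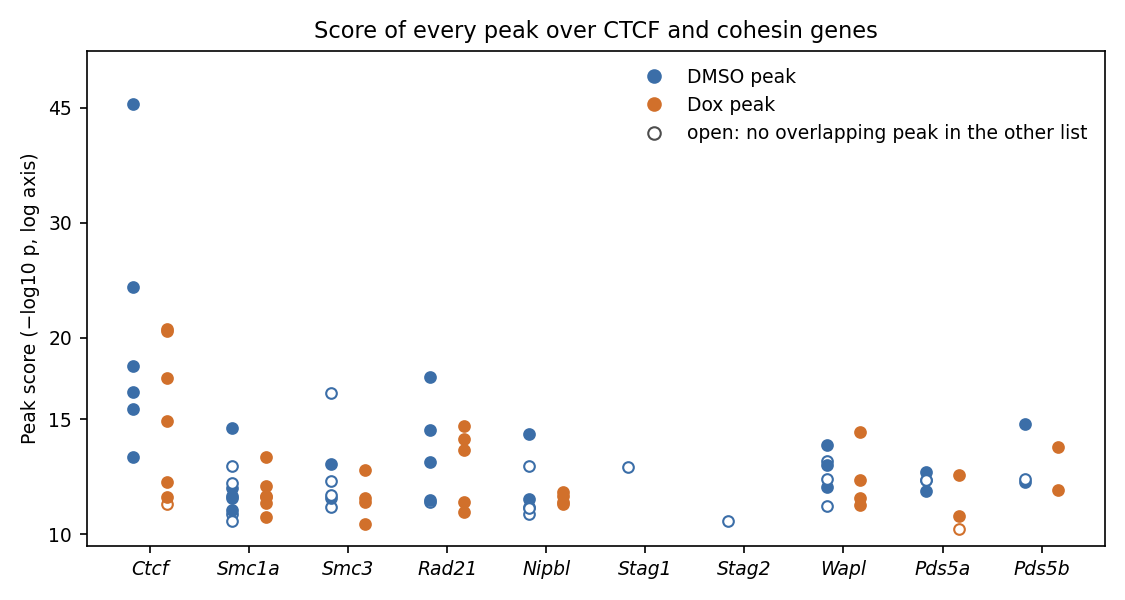
Score of every peak (y axis, −log10 p-value on a log axis) by gene for the DMSO list (blue) and the Dox list (orange); filled points overlap a peak of the other list and open points do not. Ctcf holds the highest scores, up to 45.6, and open points are mostly DMSO peaks under 13, with a Smc3 peak of 16.4 above the rest.

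Where 1 DMSO peak met 1 Dox peak and neither met another, the Dox peak was usually the shorter. There were 21 such pairs over the members. The DMSO peak was longer in 17, the lengths were equal in 3, and the Dox peak was longer in 1, the 5′UTR peak of Ctcf with 100 and 125 nt. The median lengths were 175 and 125 nt, and in 20 pairs the Dox peak lay wholly inside the DMSO peak. Over all 8891 such pairs of the lists, the DMSO peak was longer in 68.9%, against 81.0% here. By rank within its own list the DMSO peak stood higher in 13 of the 21 pairs (61.9%), as in 62.1% of all pairs.

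**Figure D4:**
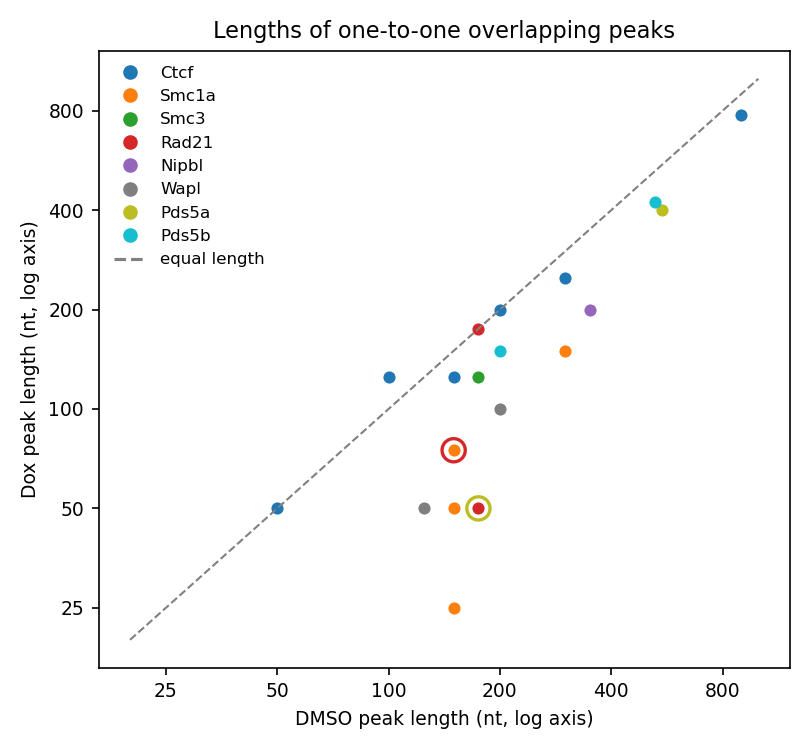
Length of the DMSO peak (x axis) against the Dox peak (y axis), both in nt on log axes, for the 21 one-to-one overlapping pairs, coloured by gene; a ring around a point marks a second pair with the same lengths, and the dashed line is equal length. Points lie below the line in 17 pairs, on it in 3 and above it in 1.

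Splitting of peaks ran one way over the members. Of the 26 overlapped DMSO peaks, 5 met more than 1 Dox peak (19.2%, 8.51 to 37.9), namely those of Smc1a, Smc3, Rad21, Nipbl and Wapl described above, and over all lists 12.1% did. Of the 33 overlapped Dox peaks 0 met more than 1 DMSO peak, against 2.42% over all. The counts of 47 and 35 peaks gave a ratio of 1.34, below the 1.81 of the covered bases, where all peaks gave 1.45. The DMSO list held more peaks for 8 members, as it did for 59.1% of protein-coding genes with a peak in either list. The Dox list held more for 1, Ctcf, as for 12.7% of those genes, and Rad21 had as many in each.

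The position of the peaks along the mRNA could be read for 45 DMSO and 34 Dox peaks whose middle lay in the transcript used. Of these 41 and 29 were centred in the coding sequence (91.1%, 79.3 to 96.5, and 85.3%, 69.9 to 93.6). Over all peaks 71.8% and 71.0% were. The 3′UTR held 3 and 4 of the members' peaks, and 24.8% and 25.2% of all peaks. Within 200 nt of the first base of the stop codon lay 5 of 45 DMSO peaks (11.1%, 4.84 to 23.5) and 3 of 34 Dox peaks (8.82%, 3.05 to 23.0), against 22.9% and 25.1% over all. A larger share of the members' peaks was thus centred in the coding sequence and a smaller share at the stop codon, but the share of all peaks lay within the members' interval for the coding sequence under Dox and for the stop codon under DMSO. Peaks of 1 gene share their transcript and are not independent.

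The stop codon peaks of Ctcf, Pds5a and Pds5b were present in both lists, and those of Rad21 and Nipbl in the DMSO list. In Ctcf, Rad21 and Nipbl a GGAC adenosine lay 5, 19 and 9 nt before the stop codon, inside the peak. A GGAC within the last 20 nt before the stop codon occurred in 30% of the members and in 9.82% of 21752 protein-coding transcripts, a window that was chosen after the sites had been seen.

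Long internal exons were covered over a larger part of their length than shorter ones, in the members and in all genes with a peak. In sum the members' shorter internal exons held more covered bases, 6297 against 3994 in DMSO peaks and 2963 against 2720 in Dox peaks. The members have 6 internal exons of at least 400 nt, which are exon 3 of Ctcf, exons 9 and 10 of Nipbl, exons 2 and 3 of Wapl and exon 32 of Pds5b. Of their 5039 bases 79.3% lay in DMSO peaks and 54.0% in Dox peaks. Of the bases of the 256 shorter internal exons 18.7% lay in DMSO peaks, and of the 192 such exons of the 8 members with a Dox peak 11.4% lay in Dox peaks. In all protein-coding genes with a peak in the list, 42.6% and 36.4% of the bases of long internal exons and 10.2% and 6.83% of the bases of shorter ones were covered. Among the 6, the covered part ran from 36.9% and 19.2% in exon 2 of Wapl to 98.6% and 95.4% in exon 3 of Ctcf. The Dox list covered less than the DMSO list in each of the 6.

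Short exons were reached by peaks that run over splice junctions. Of the DMSO peaks 27 of 47 had 2 or more exon blocks (57.4%, 43.3 to 70.5), and of the Dox peaks 15 of 35 (42.9%, 28.0 to 59.1). Over all peaks the shares were 26.4% and 21.8%, below both intervals. The intervals treat peaks of the same gene as independent, which they are not. The 10 members have 256 internal exons under 400 nt, while 61713 were counted in 6055 protein-coding genes with a DMSO peak. The members thus have more such exons per gene. No comparison was made with genes of like exon number, so the part of exon number in this difference was not tested. The most exon blocks, 7, were found in a DMSO peak of Smc3 and in one of Rad21, genes without an internal exon of 400 nt.

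GGAC, searched on the strand of the peak in the sequence of its exon blocks, occurred in 25 of 47 DMSO peaks (53.2%, 39.2 to 66.7) and 17 of 35 Dox peaks (48.6%, 33.0 to 64.4). All peaks gave 54.0% and 55.9%. Its reverse complement GTCC, searched on the same strand as a comparison, occurred in 23.4% and 28.6% of the members' peaks and in 36.6% and 37.0% of all. The wider motif DRACH, which includes GGAC where the next base is not G, occurred in 89.4% and 85.7% of the members' peaks and in 84.9% and 85.4% of all peaks. Long peaks hold more motifs by their length alone. Each of the 9 DMSO and 7 Dox peaks over 300 nt held a GGAC, as did 92.3% and 93.9% of all such peaks. Among peaks over 150 and up to 300 nt, 8 of 14 DMSO and 4 of 8 Dox peaks did (57.1%, 32.6 to 78.6, and 50%, 21.5 to 78.5), against 73.5% and 76.0% of all. Among those over 50 and up to 150 nt, 6 of 17 and 5 of 11 did (35.3%, 17.3 to 58.7, and 45.5%, 21.3 to 72.0), against 49.9% and 52.0%. The shares of all peaks lay within these intervals. In the peaks of up to 50 nt 2 of 7 and 1 of 9 held a GGAC, against 981 of 5138 and 701 of 3501.

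Set against length, GGAC was denser inside the members' peaks than outside. Their transcripts hold 167 GGAC sites, of which 48 lay in DMSO peaks and 32 in Dox peaks. This made 4.06 sites per kb inside and 2.39 outside DMSO peaks, a ratio of 1.70. All protein-coding genes with a DMSO peak gave 6.26 and 3.85, a ratio of 1.63. For Dox peaks, over the 8 members that carry one, it made 4.88 and 2.48 sites per kb, a ratio of 1.97. All protein-coding genes with a Dox peak gave 6.68 and 3.88, a ratio of 1.72. The members thus had fewer GGAC sites per kb than all such genes, inside peaks and outside. Nipbl held the most, with 12 of its 21 sites in DMSO peaks and 7 in Dox peaks. Ctcf had 5 of its 10 in peaks of either list, and Stag2 0 of 10. The pair of Ctcf peaks with the highest DMSO scores, in exons 10 and 11, held no GGAC.

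Beyond the 10 members, 42 other genes of loop formation, sister chromatid cohesion, condensin and the SMC5/6 complex were counted. Of these 30 carried DMSO peaks and 23 carried Dox peaks, where 27.5% and 22.1% of protein-coding genes did. The shares of all genes were not matched to the related genes in exon length or expression, and the part of either was not tested. Each of the 23 had both, so that 7 of the 30 had no Dox peak. Among all protein-coding genes with a DMSO peak 22.0% had no Dox peak, so that 7 of 30 was near the share of all genes. The related genes carried 118 DMSO and 76 Dox peaks over 25650 and 16975 exonic bases. More bases lay in the DMSO list for 27 genes and in the Dox list for 2, Pttg1 and Haspin, and Nsmce3 had as many in both. The direction was thus the same as over the members and over most genes.

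By complex, all 8 condensin subunits, which compact mitotic chromosomes, carried DMSO peaks and 5 carried Dox peaks, over 3900 and 1575 bases. Of the 8 SMC5/6 genes, which act in DNA repair, 5 and 3 did, over 3625 and 1925 bases. Of the 14 genes of cohesin loading, release and cohesion 11 and 10 did, over 8200 and 5600 bases. Of 7 other architecture factors 6 and 5 did, over 9925 and 7875 bases. The 5 germline paralogs Stag3, Smc1b, Rec8, Rad21l and Ctcfl had no peak in either list.

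The related genes with most DMSO peaks included Top2a and Espl1. Top2a, a DNA topoisomerase of dividing cells, had 13 DMSO and 5 Dox peaks over 2325 and 1075 bases. Espl1, the separase that cleaves RAD21 at anaphase, had 11 and 10 over 2100 and 1825 bases. Slf2, of the SMC5/6 pathway, was among those with most Dox peaks, with 7 in each list. Of the 7 related genes with a DMSO peak alone, the first by number were Smc5 with 3 peaks, Ncapg with 3, and Nsmce2 with 2. The other 4 had 1 each, of which those of Esco2 and Smchd1 scored highest, with 13.0 and 12.6. In the Dox list alone there were 0, where 3.05% of protein-coding genes with a Dox peak had no DMSO peak.

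**Figure D5:**
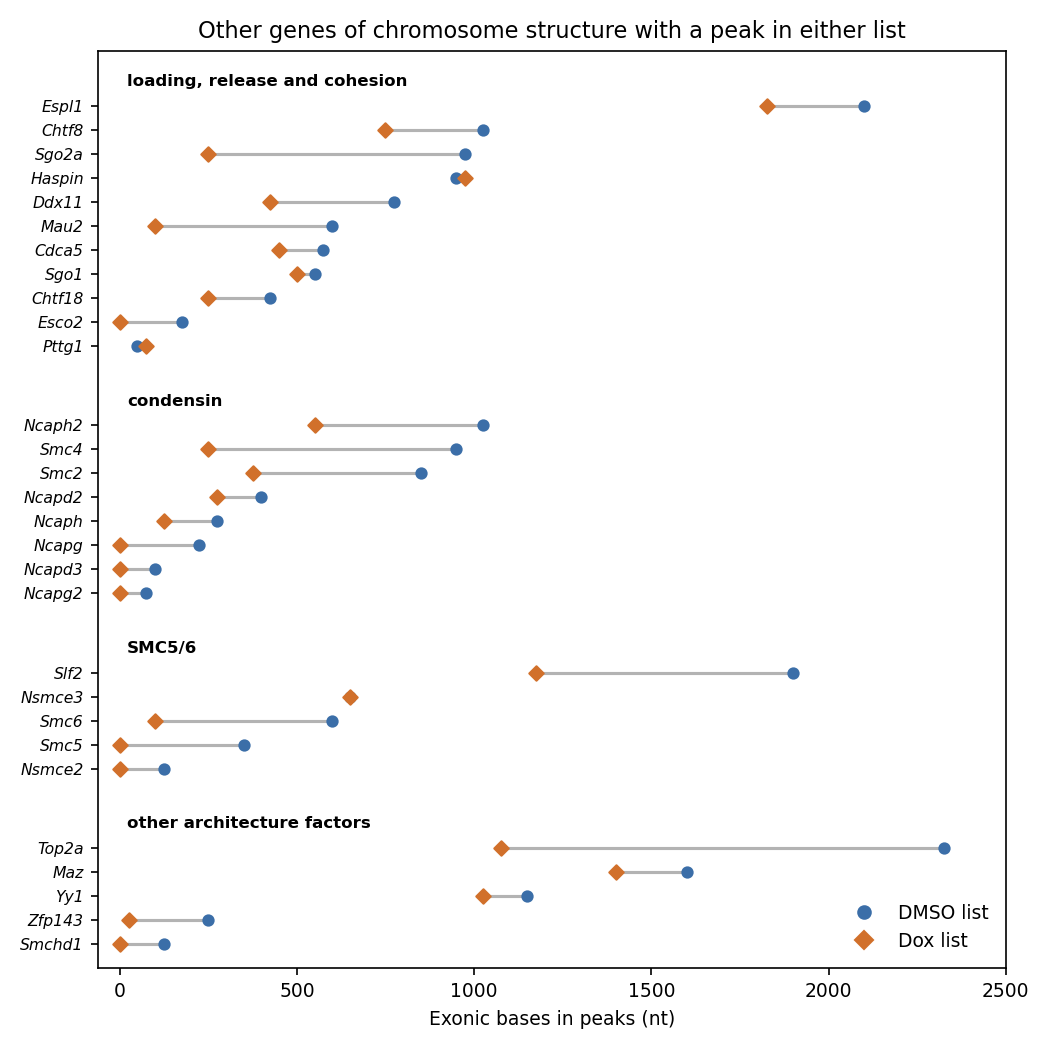
Exonic bases in peaks (x axis, nt) of 29 related genes with a peak in either list, grouped by complex, for the DMSO list (blue circles) and the Dox list (orange diamonds); a grey line joins the values of 1 gene. The Dox value is the lower in 26 of the genes drawn, with the widest gap in Top2a (2325 against 1075), and 7 genes lie at 0 in the Dox list.

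With the lists made equal in size, by keeping the 13001 DMSO peaks of highest score, 9 members kept more covered bases in the DMSO list and Stag2 lost its peak. The members then had 10900 DMSO and 6700 Dox bases, a ratio of 1.63 where all protein-coding genes gave 1.28. By number of peaks the DMSO list then led for 5 members and the Dox list for 2, Ctcf and Nipbl, with 3 equal. Nipbl had 3 DMSO against 4 Dox peaks, so that the order by number of peaks turned in Nipbl while the order by bases did not, with 1550 against 900. Input and IP depth, and the level of each transcript under Dox, were not analysed here, and their part in these differences was not tested.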

How the data were processed

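MeRIP-seq libraries of E14 mouse ESCs (2 IP and 2 input per treatment) were filtered with fastp 0.19.4 and aligned to mm10 with HISAT2 2.2.1, per the submitters' processing notes, which also list ChIPseeker. Per the study's methods, peaks were called with exomePeak2, whose version and settings are not given in the sources used here, nor is how replicates were combined. The deposited lists hold 1 −log10 p-value per peak, from the authors, used as the score; whether it is adjusted is not stated.

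Peaks were assigned to GENCODE M21 exons of GRCm38 by 1 shared base on the same strand. Of the inner block edges of the members' peaks, 86 of 86 (DMSO) and 40 of 40 (Dox) lay at annotated exon edges. Positions used the transcript with the longest coding sequence. Percentiles, overlaps, motifs and Wilson 95% intervals were computed in Python 3.11.15 with numpy 2.4.6, figures with matplotlib 3.10.9, and near-identical loci (90% of the peak at 98% identity) with blastn 2.17.0. The assignment of peaks to genes, the transcript position of the middle and the overlap of peaks were tested on simulated peaks, and the other steps were not. With 1 list per treatment no test was made from these lists.

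Named were all members with their best and list-only peaks and, of the related genes, the 3 with most peaks in each list and up to 5 per direction found in 1 list. Of the related genes 1 is counted but not reported here by itself. Members and lists were chosen with earlier results of these data known. Related genes were grouped by complex, and internal exons split at 400 nt, after the data had been seen. Alternatives covered the score threshold, list size, overlap, transcript, stop codon window and motif.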

Additional observations from a re-analysis of the deposited data

How the results depend on the processing

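Of 68 alternative values for 14 results, 46 stayed within the limits set for a move and 22 did not. The DMSO list had more peaks over the members than the Dox list in 8 of 8 alternatives, which are not independent checks. Other rules for assigning peaks to genes returned the same 47 and 35 peaks, and leaving out the near-identical locus gave 47 and 34. The score thresholds left more DMSO than Dox peaks in the whole lists too, with ratios of 1.52 to 1.77. At equal list sizes the members had 38 and 35 peaks. With a score of at least 12 there were 27 DMSO and 14 Dox peaks over 7650 and 3700 bases, 13 related genes had a Dox peak, and the shares overlapped were 40.7% (DMSO) and 78.6% (Dox). Covered bases were then higher in the DMSO list for 8 members and in the Dox list for 1, Wapl. With a score of at least 15 there were 3 and 1 members, 7 and 3 peaks, 1075 and 575 bases, 9 and 6 related genes, and 100% of the Dox peaks overlapped. The whole lists then held 2024 and 1141 peaks, and the ratio of bases was 1.87 over the members and 1.69 over all protein-coding genes. For the overlap shares and the counts of genes, values over all genes at these thresholds are not given here. With at least 50% of the peak shared, 40.4% of DMSO peaks were overlapped, and with 50% of both peaks 40.4% (DMSO) and 54.3% (Dox). DRACH occurred in 89.4% (DMSO) and 85.7% (Dox) of peaks. A window of 400 nt put 17.8% (DMSO) and 23.5% (Dox) of peaks at the stop codon. The share of all peaks in that window is not given here, and the 25.1% of all Dox peaks above is for 200 nt. At equal list sizes 9 members had a DMSO peak. The cause of these moves was not tested. No paired analysis was possible because the peak lists used here hold no value per replicate, although the labels number the 2 replicates of each group, and for that reason no replicate could be left out of these lists. Depth is unknown, so that a missing peak does not show missing m6A.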
